A study of Mus musculus with 17 samples.

Results

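The genes of Polycomb repressive complexes 1 and 2 (PRC1 and PRC2) were followed in 17 RNA-seq libraries of mouse CD8 T cells. They were chosen by gene symbol from a list of 33 subunits, and all 33 were found among the 24594 genes of the count tables. They comprise 6 genes of the PRC2 core, 5 of its accessory proteins, 2 E3 ligases of PRC1, 6 PCGF proteins, 4 CBX proteins, 4 PHC and SCM proteins and 6 partners of variant PRC1. The cells came from the spleen and are labelled CD8+ and Thy1.1+, and each group is named by the gene that was targeted. The control, Rosa KO, had 5 libraries, and Asxl1 KO, Dnmt3a KO and Tet2 KO had 4 apiece. Asxl1 is a partner of the Bap1 deubiquitinase that removes the PRC1 mark, Dnmt3a methylates DNA and Tet2 oxidises that methyl mark. The sex and age of the mice, the way the genes were targeted and the share of edited cells are not stated in the labels. No label ties the libraries of a group to separate animals, so each p-value measures the spread between libraries only, which may be technical.

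Polycomb complexes keep genes silent through marks on histones. PRC2 adds methyl groups to a lysine in the tail of histone H3 through its catalytic subunit, Ezh2 or Ezh1, and PRC1 attaches ubiquitin to histone H2A through its ring-finger ligases Rnf2 and Ring1. PRC1 is assembled around a PCGF protein, with CBX and PHC subunits in its canonical form and with Rybp or Yaf2 in its variant forms. In CD8 T cells Ezh2 is known to be induced on activation and to silence genes during effector differentiation.

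Total counts ran from 6625833 to 40701203 per library (median 21642477), and 12901 to 17940 genes had at least 1 count. The library numbers of the labels fell into 3 runs, which the labels do not call batches. Run 1 held Rosa KO 1, Asxl1 KO 1 and Dnmt3a KO 1 and 2, and run 2 held Asxl1 KO 2, Dnmt3a KO 3 and 4 and Tet2 KO 1 and 2. Run 3 held Rosa KO 2 to 5, Asxl1 KO 3 and 4 and Tet2 KO 3 and 4. Levels are given as CPM, the counts scaled by TMM to a common library total, and lists of libraries follow the replicate numbers. The CD8 genes Cd8a and Cd8b1 were present in every library (641 to 1240 CPM and 399.9 to 1224 CPM), and Cd4 was at 0.0904 to 99.5 CPM. The Dnmt3a KO libraries held 52.8 to 99.5 CPM of Cd4, and Rosa KO 1, the next highest, 28.1 CPM. The summed level of 12 B cell markers ran from 151 CPM in Tet2 KO 2 to 3038 CPM in Rosa KO 3, so RNA of B cell genes was present in every library. Within run 3 that sum was 2742 to 3038 CPM in Rosa KO, 658 and 630 in Asxl1 KO 3 and 4 and 2683 and 2612 in Tet2 KO 3 and 4. In run 1 it was 528 CPM in Rosa KO 1. The part of such differences in the group comparisons was not tested. Asxl1, Dnmt3a and Tet2 RNA did not pass the edgeR test where the gene was targeted (log2 fold change −0.13, −0.062 and −0.26), and the groups are taken as labelled. Asxl1 KO 1 stood apart, with 12901 CPM of T cell markers against 5003 to 8983 CPM elsewhere and 2369 CPM of erythroid and platelet markers against 19.5 to 519.9 CPM.

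RNA of the Polycomb genes was measured in all 4 groups, and none of the 33 passed the test in any knockout against Rosa KO. All 33 passed the filter on low counts. In edgeR's quasi-likelihood test, with group and run in the model, 0 of 33 had an adjusted p under 0.05 in Asxl1 KO, where 1.64% of all 13881 tested genes did. The counts were 0 of 33 in Dnmt3a KO (0.216% of all genes) and 0 of 33 in Tet2 KO (1.47%). The 3 comparisons share the Rosa KO libraries. Between the knockouts, edgeR called 0 of 33 for Asxl1 KO against Dnmt3a KO (0.353% of all genes), Asxl1 KO against Tet2 KO (0.562%) and Dnmt3a KO against Tet2 KO (0.0937%). A joint edgeR test over the 4 groups called 0 of 33 as well (1.79%). With background shares this low, 0 of 33 is near the background and says nothing particular about the Polycomb genes. Within run 3 alone, edgeR called 0 of 33 in Asxl1 KO (3.12% of all genes) and 0 of 33 in Tet2 KO (2.23%) against Rosa KO. Run 1 held 1 Rosa KO and 1 Asxl1 KO library, so fits within it have a side without replicates, assumed to vary like the other. They called 0 of 33 in Dnmt3a KO 1 and 2 against Rosa KO 1 (0.2% of all genes) and 4 of 33, or 12.1%, in Asxl1 KO 1 against Dnmt3a KO 1 and 2 (7.81%), namely Bcorl1, Cbx7, Pcgf1 and Phc1. In bulk RNA, fewer cells of a type and less RNA per cell cannot be told apart.

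At an unadjusted edgeR p under 0.05, 3 of the 33 genes stood in Asxl1 KO (15.7% of all genes), 4 in Dnmt3a KO (8.03%) and 7 in Tet2 KO (12.2%). In Asxl1 KO these were Jarid2, Mtf2 and Pcgf3, all lower. In Dnmt3a KO Pcgf1 was higher and Bcorl1, Kdm2b and Phf1 were lower. In Tet2 KO Ezh2 and Pcgf1 were higher and Kdm2b, Pcgf2, Phc3, Phf1 and Rybp were lower. Between the knockouts the unadjusted counts were 4 for Asxl1 KO against Dnmt3a KO (11%), 1 for Asxl1 KO against Tet2 KO (7.21%) and 1 for Dnmt3a KO against Tet2 KO (5.6%), and the joint test gave 3 (14.4%). DESeq2 called 0 of the 33 in Asxl1 KO (5.23% of all genes given an adjusted p), 1 in Dnmt3a KO (1.09%) and 1 in Tet2 KO (3.34%) against Rosa KO. In these 3 comparisons it gave Cbx2 no p-value, so Cbx2 could not be called. It called 0 for Asxl1 KO against Dnmt3a KO (1.85%), Asxl1 KO against Tet2 KO (1.29%) and Dnmt3a KO against Tet2 KO (0.532%), and 0 in the joint test (5.71%). Its 2 calls were Pcgf1 and Phf1. Their values by library follow under their roles. The median log2 fold change of the Polycomb genes was −0.023 in Asxl1 KO, −0.067 in Dnmt3a KO and −0.059 in Tet2 KO. Over all tested genes the medians were 0.00043, −0.0030 and −0.020. The 95% interval of the fold change lay within 2-fold either way for 18, 18 and 19 of the 33 genes, and the other 15, 15 and 14 were measured less closely than that.

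**Figure D1:**
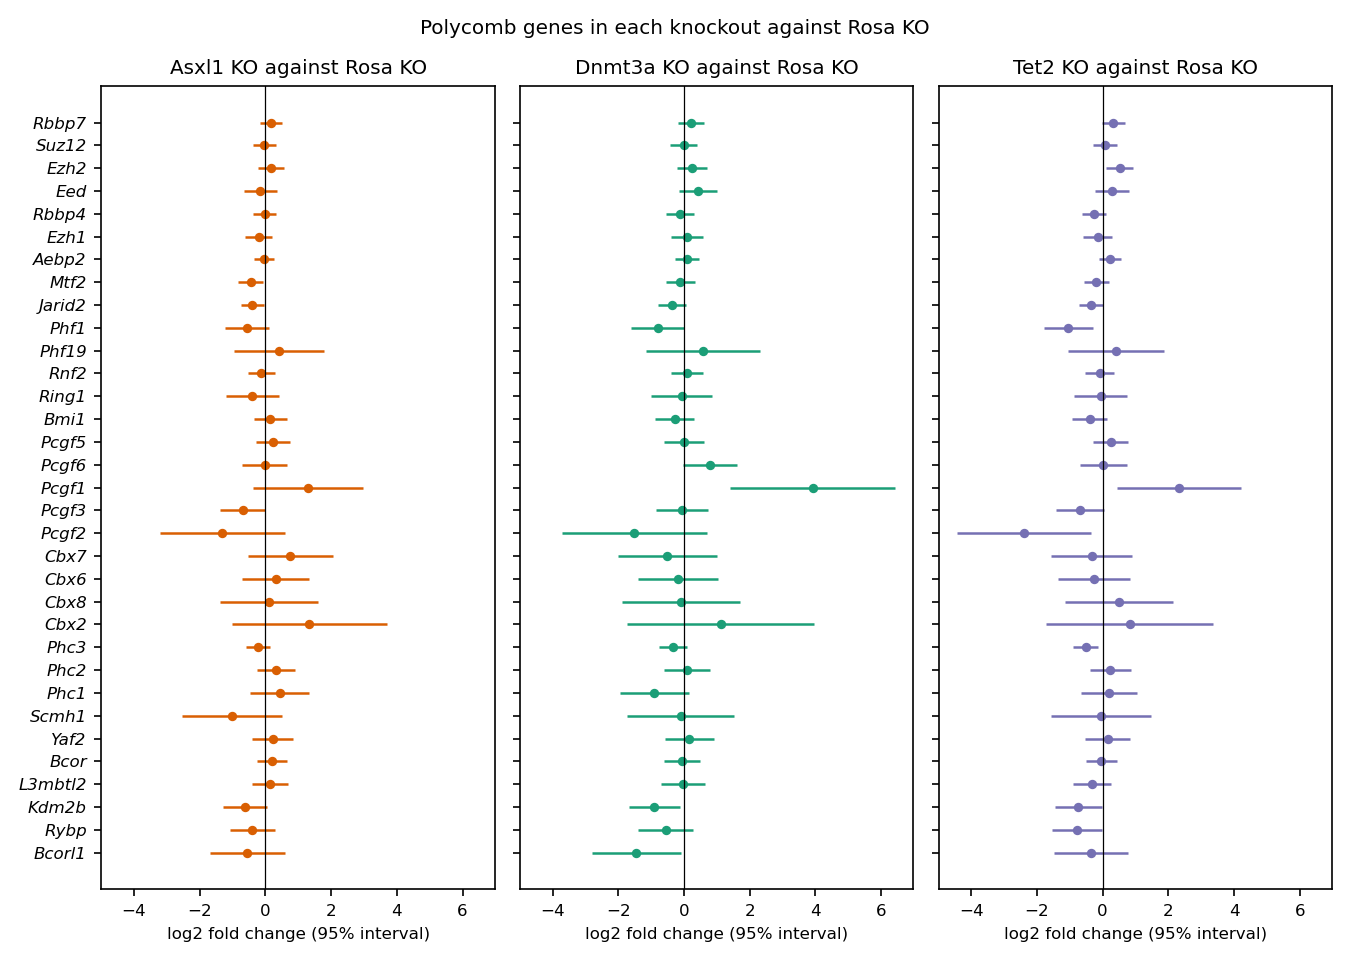
Log2 fold change (x axis) of each of the 33 Polycomb genes (y axis, ordered by role and level) in each knockout against Rosa KO, from edgeR with group and run as terms. Points are estimates and bars 95% intervals; none of the 33 genes passed the adjusted test, and the widest bars belong to genes of low level such as Pcgf1, Pcgf2 and Cbx2.

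The levels differed widely by role. To compare genes, CPM was divided by the length of the longest annotated transcript in kb (CPM per kb). The core PRC2 gene Rbbp7 had the highest median over the 17 libraries, 85.5 CPM per kb, and the core genes Suz12, Ezh2 and Ezh1 were at 48.9, 44.2 and 20.4. The PRC1 ligase Rnf2 was at 33.9 CPM per kb and its paralog Ring1 at 5.97. The lowest levels were those of the chromobox genes Cbx6 (1.18), Cbx8 (1.12) and Cbx2 (0.607). No gene had a median under 1 CPM, so none was too low to measure by that limit, and 8 genes had a median of at least 100 CPM and 7 one under 10 CPM. Those 7 were Cbx2, Cbx8, Pcgf1, Pcgf2, Phf19, Scmh1 and Cbx6. The spread over libraries followed the level: the median coefficient of variation was 20.7% for the 8 high genes and 62.3% for the 7 low genes, from 16.96% for Suz12 to 117% for Pcgf2.

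**Figure D2:**
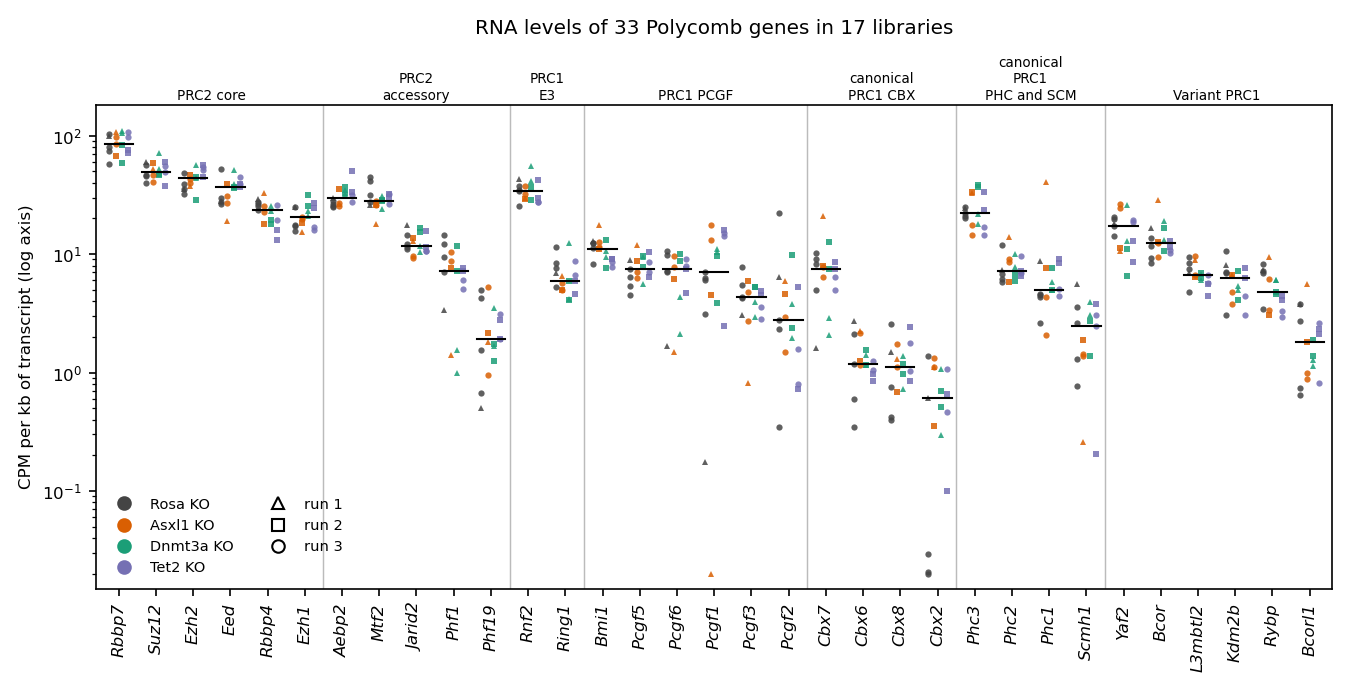
RNA level in CPM per kb of the longest transcript (y axis, log scale) of the 33 Polycomb genes by role (x axis) in 17 libraries. Each point is a library, coloured by group with its shape giving the run, the bar is the median, and the 2 counts of 0 (Pcgf1 in Asxl1 KO 1 and Cbx2 in Rosa KO 5) are drawn near the lower edge; Rbbp7 lay highest and Cbx2 lowest.

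Ezh2 (NCBI gene 14056, chromosome 6, 47530274 to 47595270), the main methyltransferase of PRC2, had 98.1, 99.3, 109, 89.01 and 133.9 CPM in the Rosa KO libraries, 106, 128.5, 119 and 110.2 CPM in Asxl1 KO, 123, 158, 79.8 and 124.4 CPM in Dnmt3a KO and 124.1, 156, 144 and 152 CPM in Tet2 KO. The 4 Tet2 KO libraries lay above 4 of the 5 Rosa KO libraries, and Rosa KO 5 overlapped them. Group means were 106 ± 17.2 CPM in Rosa KO (SD, n = 5) and 144 ± 14.2 CPM in Tet2 KO (n = 4). The log2 fold changes against Rosa KO were 0.17 ± 0.19 in Asxl1 KO (edgeR adjusted p = 0.738), 0.24 ± 0.22 in Dnmt3a KO (0.843) and 0.51 ± 0.20 in Tet2 KO (0.247), each ± SE. In Tet2 KO the unadjusted edgeR p was 0.0148 and the 95% interval 0.11 to 0.92, the only core gene with an interval apart from 0 in the 3 comparisons, and it did not pass the adjustment. Outside the core, Phf1 and Phc3 had smaller unadjusted edgeR p-values in Tet2 KO (0.00808 and 0.00884).

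Ezh1 (NCBI gene 14055, chromosome 11, 101191115 to 101226463), the paralog with weaker catalytic activity, had 106, 65.3, 74.3, 105 and 72.1 CPM in the Rosa KO libraries, 63.98, 77.4, 83.8 and 85.9 CPM in Asxl1 KO, 96.6, 88.9, 106 and 133.7 CPM in Dnmt3a KO and 102, 113, 67.7 and 70.97 CPM in Tet2 KO. The 4 Dnmt3a KO libraries all lay above the 4 Asxl1 KO libraries, 1 gene of 33 without overlap between these groups, where 4.4% of all genes had none. Against Rosa KO the groups overlapped, with log2 fold changes of −0.21 ± 0.20 in Asxl1 KO (edgeR adjusted p = 0.677), 0.10 ± 0.23 in Dnmt3a KO (0.959) and −0.15 ± 0.21 in Tet2 KO (0.866). Ezh2 exceeded Ezh1 per kb in 17 of 17 libraries, by a median of 2.15 times.

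Suz12 (NCBI gene 52615, chromosome 11, 79993106 to 80034123) and Eed (NCBI gene 13626, chromosome 7, 89954654 to 89980976) encode the scaffold and the reader of the methyl mark. Suz12 had 260.1, 200.5, 245, 174 and 204 CPM in the Rosa KO libraries, 229.8, 254, 178 and 204 CPM in Asxl1 KO, 313, 226, 204 and 208 CPM in Dnmt3a KO and 165, 264, 214 and 243 CPM in Tet2 KO. These ranges overlapped in all groups, and the log2 fold changes were −0.029 ± 0.17 in Asxl1 KO (edgeR adjusted p = 0.96), −0.003 ± 0.20 in Dnmt3a KO (0.999) and 0.071 ± 0.18 in Tet2 KO (0.931). Its 95% intervals of −0.38 to 0.32, −0.41 to 0.41 and −0.29 to 0.43 were among the narrower ones of the set. Eed had 58.4, 60.97, 109, 54.5 and 56.4 CPM in the Rosa KO libraries, 39.1, 80.1, 55.5 and 64.5 CPM in Asxl1 KO, 106, 80.9, 74.1 and 76.1 CPM in Dnmt3a KO and 75.9, 80.5, 81.3 and 92.2 CPM in Tet2 KO. Rosa KO 3 lay far above the other 4 Rosa KO libraries and Asxl1 KO 1 was the lowest of all 17, and the log2 fold changes were −0.16 ± 0.24 in Asxl1 KO (edgeR adjusted p = 0.819), 0.42 ± 0.28 in Dnmt3a KO (0.751) and 0.28 ± 0.25 in Tet2 KO (0.746).

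The histone-binding subunits Rbbp7 (128.9 to 246 CPM) and Rbbp4 (61.4 to 154 CPM) also serve in other chromatin complexes. Rbbp7 exceeded Rbbp4 per kb in 17 of 17 libraries. Rbbp7 shares 174 bases with the neighbouring gene Txlng, which was at 54.3 to 166 CPM, and the counts may not separate such overlaps. The same holds for Cbx7 with Apobec3 (2415 bases, 256 to 484 CPM) and, with partners at up to 3.93 CPM, for Cbx6, L3mbtl2 and Rbbp4.

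The promoters of the 2 catalytic genes are shown because E2F factors, regulators of the cell division cycle, are known to act on Ezh2. Ezh2 is also set against proliferation genes further on. The promoters of 2 further PRC2 genes, Suz12 and Phf19, are the others with a match to the motifs below. Of the 33 genes, 29 had an entry in RefSeq's promoter table (GRCm38.p6, the assembly also called mm10), which covers 250 bases before to 50 after the start. The E2F-type motifs TTTCCCGC, TTTCGCGC, TTTGCCGC and TTTGGCGC were searched on both strands. They stood in 3 of the 29 promoters (10.3%), those of Ezh2, Suz12 and Phf19, against 4.12% of 10970 promoters of tested genes and 2.32% of all 27025. Capitals mark the match, and a match is a description of letters, not a site. Distances are from the start listed with each promoter. For Ezh2 and Phf19 that start lies inside the RefSeq bounds of the gene, which reach upstream to 47595270 and 34914353. The Phf19 match, though before its listed start, thus lies within the bounds of the gene. The order below is Ezh2 (chr6:47594981-47595280, minus strand, match beginning 4 bases after the start), Ezh1 (chr11:101226414-101226713, minus strand, no match), Suz12 (chr11:79992856-79993155, plus strand, match 219 bases before the start) and Phf19 (chr2:34913927-34914226, minus strand, match 208 bases before the start), each 5′ to 3′.
Ezh2: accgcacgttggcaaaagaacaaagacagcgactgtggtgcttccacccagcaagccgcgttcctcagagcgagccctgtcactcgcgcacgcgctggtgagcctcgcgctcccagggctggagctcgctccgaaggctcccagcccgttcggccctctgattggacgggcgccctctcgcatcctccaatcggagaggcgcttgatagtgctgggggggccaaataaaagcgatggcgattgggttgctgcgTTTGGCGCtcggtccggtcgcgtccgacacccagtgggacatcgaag
Ezh1: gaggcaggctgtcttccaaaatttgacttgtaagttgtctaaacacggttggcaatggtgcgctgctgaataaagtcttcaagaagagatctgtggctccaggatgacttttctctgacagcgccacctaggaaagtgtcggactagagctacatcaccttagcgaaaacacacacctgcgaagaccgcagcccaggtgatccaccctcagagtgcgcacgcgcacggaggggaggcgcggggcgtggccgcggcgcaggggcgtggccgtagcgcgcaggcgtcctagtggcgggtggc
Suz12: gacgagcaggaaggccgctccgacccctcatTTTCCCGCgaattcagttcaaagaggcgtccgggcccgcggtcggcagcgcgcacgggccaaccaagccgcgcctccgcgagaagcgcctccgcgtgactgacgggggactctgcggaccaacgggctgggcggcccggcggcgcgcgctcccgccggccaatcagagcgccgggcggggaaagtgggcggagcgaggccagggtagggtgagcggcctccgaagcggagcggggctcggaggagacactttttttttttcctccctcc
Phf19: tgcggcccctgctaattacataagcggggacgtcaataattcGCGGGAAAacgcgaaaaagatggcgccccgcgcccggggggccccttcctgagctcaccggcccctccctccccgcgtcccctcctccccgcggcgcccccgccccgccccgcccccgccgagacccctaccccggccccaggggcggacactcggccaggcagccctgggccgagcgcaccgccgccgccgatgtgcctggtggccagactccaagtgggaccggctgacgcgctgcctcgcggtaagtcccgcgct

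The ratio of observed to expected CpG pairs in the promoters had a median of 0.805 over the 29 Polycomb genes, 0.746 over the promoters of tested genes and 0.389 over all. The Ezh2 and Suz12 promoters held 31 and 41 CpG pairs in 300 bases and that of Ezh1 held 23.

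Of the accessory subunits of PRC2, Aebp2 and Mtf2 were high and Phf19 was low. Aebp2 (NCBI gene 11569, chromosome 6, 140622454 to 140678472), a partner of the variant that also holds Jarid2, had 177, 166, 149, 151 and 156 CPM in the Rosa KO libraries, 155, 208, 159 and 151 CPM in Asxl1 KO, 189, 207, 194 and 216 CPM in Dnmt3a KO and 199, 298, 188 and 164 CPM in Tet2 KO. The 4 Dnmt3a KO libraries lay above all 5 Rosa KO libraries, the only Polycomb gene without overlap there (4.03% of all genes had none), while 0 of 33 were without overlap in Asxl1 KO (2.78%) and in Tet2 KO (2.82%). With run in the model the log2 fold change of Aebp2 in Dnmt3a KO was 0.079 ± 0.18 (edgeR adjusted p = 0.956). Mtf2, a Polycomb-like protein that binds CpG-rich DNA, ran from 72.8 to 183 CPM, and Jarid2, which recruits PRC2, from 77.2 to 146 CPM. Both had an unadjusted edgeR p under 0.05 in Asxl1 KO, at −0.45 ± 0.18 (adjusted p = 0.215) and −0.39 ± 0.17 (0.263), and were chosen for mention after their values were seen. Jarid2 was similar in Dnmt3a KO, at −0.37 ± 0.20 (edgeR adjusted p = 0.687), and in Tet2 KO, at −0.36 ± 0.18 (0.436). Its value was thus not particular to Asxl1 KO. Mtf2 was at −0.12 ± 0.21 (0.944) and −0.19 ± 0.19 (0.784) in those 2 knockouts.

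Phf1 (NCBI gene 21652, chromosome 17, 26933127 to 26937908), another Polycomb-like protein, had 10.6, 29.6, 37.9, 45.6 and 22.4 CPM in the Rosa KO libraries, 4.38, 23.8, 32.97 and 27.7 CPM in Asxl1 KO, 4.90, 3.11, 36.5 and 22.6 CPM in Dnmt3a KO and 24.1, 22.6, 18.98 and 16.1 CPM in Tet2 KO. Its 4 libraries of run 1 were the lowest of the 17, and the Tet2 KO libraries of run 3 lay below the Rosa KO libraries of run 3. The log2 fold change in Tet2 KO was −1.05 ± 0.36, with an adjusted p of 0.187 in edgeR and 0.0489 in DESeq2, so the call depended on the tool. Phf1 was named for that call after its values were seen, as was Pcgf1. Phf19, the third Polycomb-like gene, ran from 1.88 to 19.5 CPM with group means of 8.98 ± 7.82 CPM in Rosa KO (SD, n = 5) and 9.11 ± 2.23 CPM in Tet2 KO (n = 4). Mtf2 exceeded Phf1 and Phf19 per kb in 17 of 17 libraries.

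The ubiquitin ligase of PRC1 was represented mainly by Rnf2 RNA. Rnf2 (NCBI gene 19821, chromosome 1, 151469398 to 151500991) had 137, 81.8, 112, 108 and 119.7 CPM in the Rosa KO libraries, 94.9, 93.5, 104 and 120 CPM in Asxl1 KO, 132.8, 176, 118 and 92.2 CPM in Dnmt3a KO and 95.7, 134.4, 87.9 and 87.5 CPM in Tet2 KO. Ring1 (NCBI gene 19763, chromosome 17, 34020792 to 34024680) had 17.5, 13.4, 21.4, 29.1 and 19.5 CPM in the Rosa KO libraries, 16.7, 12.6, 12.8 and 14.6 CPM in Asxl1 KO, 10.6, 31.7, 15.2 and 10.4 CPM in Dnmt3a KO and 15.01, 11.8, 17.1 and 22.3 CPM in Tet2 KO. Rnf2 exceeded Ring1 per kb in 17 of 17 libraries, by a median of 5.08 times, and both genes overlapped between all groups. The log2 fold changes of Rnf2 were −0.12 ± 0.19 in Asxl1 KO (edgeR adjusted p = 0.829), 0.095 ± 0.23 in Dnmt3a KO (0.96) and −0.085 ± 0.21 in Tet2 KO (0.932). Those of Ring1 were −0.39 ± 0.39 in Asxl1 KO (edgeR adjusted p = 0.688), −0.067 ± 0.45 in Dnmt3a KO (0.985) and −0.059 ± 0.39 in Tet2 KO (0.981), with wider standard errors than those of Rnf2.

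PCGF proteins decide which form of PRC1 is built, and Bmi1 and Pcgf2 belong to the canonical form. Bmi1 (NCBI gene 12151, chromosome 2, 18677018 to 18686629) had 45.9, 44.4, 44.6, 29.5 and 40.8 CPM in the Rosa KO libraries, 62.7, 39.7, 45.2 and 41.5 CPM in Asxl1 KO, 34.2, 38.5, 47.2 and 27.4 CPM in Dnmt3a KO and 32.4, 32.7, 28.2 and 31.1 CPM in Tet2 KO. The 4 Tet2 KO libraries all lay below the 4 Asxl1 KO libraries (3.89% of all genes had no overlap there), and Rosa KO 4 lay within the Tet2 KO range. The log2 fold changes of Bmi1 against Rosa KO were 0.15 ± 0.25 in Asxl1 KO (edgeR adjusted p = 0.828), −0.29 ± 0.29 in Dnmt3a KO (0.861) and −0.40 ± 0.26 in Tet2 KO (0.613). Asxl1 KO against Tet2 KO gave 0.55 ± 0.26, with an unadjusted edgeR p of 0.0453 and an adjusted p of 0.679. Bmi1 exceeded Pcgf2 per kb in 16 of 17 libraries. Rosa KO 2, with 55.2 CPM of Pcgf2, was the exception, while the other 16 libraries held 0.857 to 24.5 CPM.

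Pcgf1 (NCBI gene 69837, chromosome 6, 83077552 to 83080855), the PCGF protein of the variant complex with Kdm2b and Bcor, was among the low genes. It had 0.161, 5.77, 5.55, 6.47 and 2.87 CPM in the Rosa KO libraries, 0, 4.15, 16.03 and 12.1 CPM in Asxl1 KO, 9.58, 10.1, 3.55 and 8.89 CPM in Dnmt3a KO and 2.26, 14.6, 12.99 and 13.8 CPM in Tet2 KO. Asxl1 KO 1 had a count of 0, which allows up to 0.185 CPM for counting error, and Rosa KO 1 had 3 counts, both in run 1, while the Dnmt3a KO libraries of that run held 9.58 and 10.1 CPM. The log2 fold changes were 1.30 ± 0.81 in Asxl1 KO (edgeR adjusted p = 0.461), 3.92 ± 1.22 in Dnmt3a KO (0.285) and 2.33 ± 0.91 in Tet2 KO (0.267). DESeq2 gave Pcgf1 an adjusted p of 0.00464 in Dnmt3a KO, where the 95% interval in edgeR was 1.41 to 6.44. Rosa KO 1 was the only Rosa KO library that shared a run with Dnmt3a KO libraries. The estimates depended on the run term and on that library. Without the run term they were 0.94 in Dnmt3a KO and 1.38 in Tet2 KO (edgeR adjusted p = 0.823 and 1.00), and without Rosa KO 1 they were 2.82 ± 1.36 and 1.95 ± 0.95 (0.444 and 0.375).

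Pcgf5 and Pcgf3, of variant complexes that act broadly on chromatin, ran from 29.3 to 76.7 CPM and from 6.29 to 60.5 CPM, and Pcgf6, known from germline gene silencing, from 4.20 to 29.8 CPM. Per kb the order among the PCGF genes was Bmi1 (11.03), Pcgf5 (7.50), Pcgf6 (7.50), Pcgf1 (7.05), Pcgf3 (4.31) and Pcgf2 (2.80). Neighbours in the middle of that order changed places between libraries: Pcgf5 was above Pcgf6 in 7 of 17 and Pcgf6 above Pcgf1 in 9 of 17.

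Among the chromobox genes, whose proteins read the PRC2 mark, Cbx7 was the main one. Cbx7 (NCBI gene 52609, chromosome 15, 79915804 to 79971143) had 9.67, 61.5, 55.4, 30.02 and 49.7 CPM in the Rosa KO libraries, 127.6, 48.3, 39.1 and 47.3 CPM in Asxl1 KO, 17.4, 12.6, 75.97 and 45.02 CPM in Dnmt3a KO and 51.9, 45.7, 38.9 and 30.3 CPM in Tet2 KO. Asxl1 KO 1 was far above the others, and the other 3 libraries of run 1 were the 3 lowest. Cbx7 exceeded Cbx8 and Cbx2 per kb in 17 of 17 libraries and Cbx6 in 16 of 17. Cbx6 ran from 2.72 to 21.4 CPM and Cbx8 from 1.42 to 9.19 CPM. Cbx2 (NCBI gene 12416, chromosome 11, 119023019 to 119031275) had 2.31, 0.0791, 0.112, 5.23 and 0 CPM in the Rosa KO libraries, 4.26, 1.35, 4.25 and 5.05 CPM in Asxl1 KO, 1.14, 4.08, 1.96 and 2.67 CPM in Dnmt3a KO and 0.381, 2.49, 1.77 and 4.08 CPM in Tet2 KO. It had under 10 counts in 3 libraries, and its count of 0 in Rosa KO 5, the shallowest library, allows up to 0.453 CPM. Its log2 fold changes against Rosa KO had 95% intervals of −1.02 to 3.71, −1.74 to 3.97 and −1.73 to 3.37. A change of several fold was thus not detectable with these low counts and this spread between libraries. Within Rosa KO the count was 3 in Rosa KO 3 and 223 in Rosa KO 4. Cbx2 and Cbx8 are neighbours on chromosome 11, with 5027 bases between them, and Cbx6 and Cbx7 on chromosome 15, with 81470.

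The polyhomeotic proteins join canonical PRC1 complexes to each other. Phc3 (NCBI gene 241915, chromosome 3, 30899295 to 30969479) had 269.5, 273, 228, 221 and 242 CPM in the Rosa KO libraries, 358, 370.1, 194 and 158 CPM in Asxl1 KO, 239, 196, 419.8 and 404 CPM in Dnmt3a KO and 256, 367, 158 and 187 CPM in Tet2 KO. In Asxl1 KO and Tet2 KO the libraries of run 3 lay below those of the other runs. Phc3 exceeded Phc2 per kb in 17 of 17 libraries and Phc1 in 16 of 17. Phc1 (NCBI gene 13619, chromosome 6, 122317731 to 122340227) had 36.5, 18.98, 19.4, 18.3 and 11.03 CPM in the Rosa KO libraries, 172, 32.4, 8.81 and 18.2 CPM in Asxl1 KO, 24.6, 21.1, 20.9 and 32.03 CPM in Dnmt3a KO and 35.6, 38.6, 18.6 and 21.4 CPM in Tet2 KO. Asxl1 KO 1 stood far above the next library, Tet2 KO 2, and the log2 fold change of Asxl1 KO against Dnmt3a KO was 1.33 ± 0.45 (edgeR adjusted p = 0.257). Phc2 ran from 22.8 to 55.1 CPM and Scmh1, an SCM protein that binds PHC, from 0.724 to 19.9 CPM.

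Of the variant PRC1 partners, Bcor was the highest in CPM and Yaf2 the highest per kb. The corepressors Bcor and Bcorl1 ran from 58.01 to 199 CPM and from 4.83 to 41.5 CPM, with Bcor above Bcorl1 per kb in 17 of 17 libraries. Kdm2b, which brings the complex to CpG-rich DNA, ran from 15.8 to 55.2 CPM, and L3mbtl2, of the Pcgf6 complex, from 20.7 to 44.4 CPM. Rybp (NCBI gene 56353, chromosome 6, 100228565 to 100287358), which takes the place of CBX in variant complexes, had 33.2, 32.6, 37.4, 30.9 and 15.6 CPM in the Rosa KO libraries, 42.6, 13.9, 15.2 and 27.9 CPM in Asxl1 KO, 27.1, 27.2, 20.7 and 21.5 CPM in Dnmt3a KO and 18.4, 19.99, 13.1 and 14.8 CPM in Tet2 KO. The 4 Dnmt3a KO libraries lay above the 4 Tet2 KO libraries (5.28% of all genes had no overlap there), with a log2 fold change of 0.23 ± 0.37 and an edgeR adjusted p of 0.991. Its paralog Yaf2 ran from 12.3 to 49.5 CPM and exceeded Rybp per kb in 17 of 17 libraries. Bcor, Bcorl1 and Rbbp7 lie on the X chromosome.

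Paralogs were also set against each other within each library as log2 ratios of CPM (prior count 2), as a description without a test. The ratio of Ezh2 to Ezh1 was −0.10, 0.60, 0.55, −0.23 and 0.89 in Rosa KO 1 to 5, 0.72, 0.73, 0.51 and 0.36 in Asxl1 KO, 0.35, 0.83, −0.41 and −0.10 in Dnmt3a KO and 0.28, 0.47, 1.09 and 1.10 in Tet2 KO. It was above 0 in 13 of 17 libraries, and Tet2 KO 3 and 4 were the highest. Group means were 0.34 ± 0.49 in Rosa KO (SD, n = 5), 0.58 ± 0.18 in Asxl1 KO (n = 4), 0.17 ± 0.54 in Dnmt3a KO (n = 4) and 0.73 ± 0.42 in Tet2 KO (n = 4), and these spreads overlapped.

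The ratio of Rbbp4 to Rbbp7 was −0.72, −0.50, −0.93, −0.48 and −0.24 in Rosa KO 1 to 5, −0.64, −0.86, −0.71 and −1.04 in Asxl1 KO, −1.13, −1.06, −0.64 and −1.03 in Dnmt3a KO and −1.45, −1.09, −0.98 and −1.26 in Tet2 KO. Every Rosa KO library lay above every Tet2 KO library, the single case without overlap between groups among the 7 ratios. Each ratio was looked at over all pairs of groups, and no share over other gene pairs was computed. A single case among so many looks is therefore not set apart from chance. Rosa KO and Tet2 KO share only run 3, where the ranges were −0.93 to −0.24 and −1.26 to −0.98. The ratio of Rnf2 to Ring1 was above 0 in 17 of 17 libraries (mean 2.74 ± 0.47, SD), that of Rybp to Yaf2 in 5 of 17 and that of Phc1 to Phc2 in 6 of 17. The last was 0.20 and 0.30 on average in runs 1 and 2 and −0.94 in run 3, and without Asxl1 KO 1 the mean of run 1 was −0.29.

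**Figure D3:**
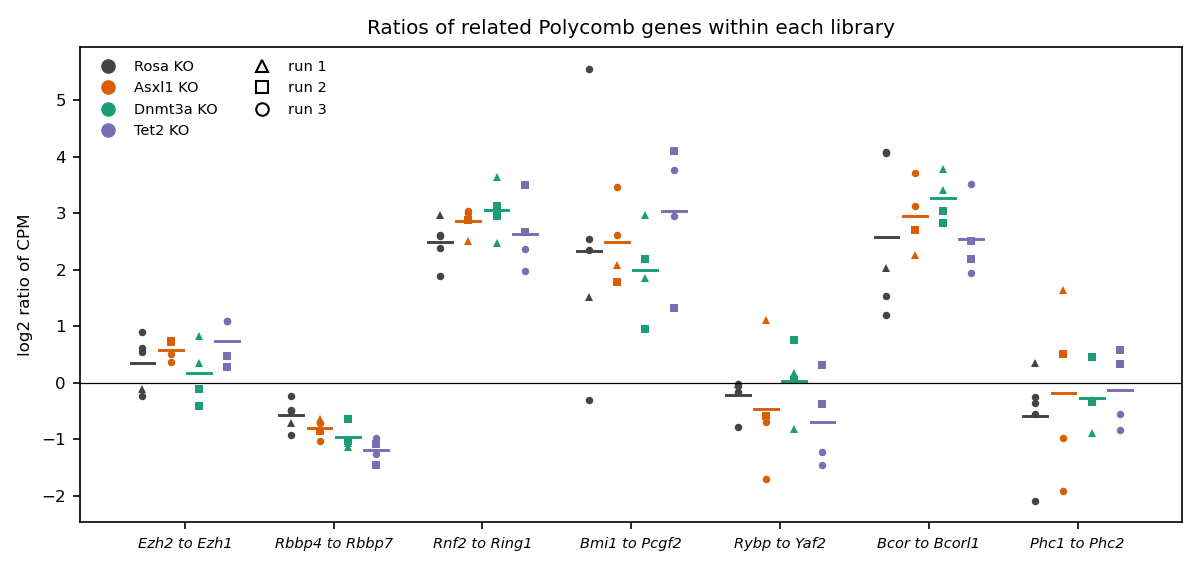
Log2 ratio of CPM (y axis) of 7 pairs of related Polycomb genes (x axis) within each library. Points are libraries, coloured by group with their shape giving the run, and bars are group means. The Rbbp4 to Rbbp7 ratio of Tet2 KO lies wholly below that of Rosa KO. It is the single such case among the 7 ratios over all pairs of groups.

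More of the Polycomb genes passed a test between the runs than between the groups. In the edgeR test of the 2 run terms with group in the model, 10 of 33 (30.3%) had an adjusted p under 0.05, where 23.6% of all genes did, so the share was near the background. They are named because they passed that test, after their values were seen. Phf1 (3.11 to 10.6 CPM in run 1, 22.6 to 36.5 in run 2 and 16.1 to 45.6 in run 3) had the smallest adjusted p, 3.37e-05, with log2 fold changes of 2.59 ± 0.37 in run 2 and 2.25 ± 0.36 in run 3 against run 1 (SE). Pcgf6 was also lowest in run 1, at 4.20 to 12.4 CPM against 13.2 to 28.5 and 20.1 to 29.8 CPM (edgeR adjusted p = 2.26e-04). All 4 libraries of run 1 lay below the 13 others for both genes.

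Phc3 was highest in run 2 and lowest in run 3, at −1.02 ± 0.17 in run 3 against run 2 (log2, SE; edgeR adjusted p over the runs = 3.53e-04). Phc1 was at −2.03 ± 0.41 in run 3 against run 1 (0.00239). Without Asxl1 KO 1 that contrast was −0.98 ± 0.34, with an edgeR adjusted p of its own of 0.0735. The other 6 were Rbbp7 (0.0144), Bcor (0.0153), Pcgf3 (0.0252), Rbbp4 (0.0266), Yaf2 (0.0287) and Jarid2 (0.0383). Rbbp7, Rbbp4 and Yaf2 had their lowest mean in run 2. The summed level of erythroid and platelet markers also differed by run, from 289.7 to 2369 CPM in run 1 against 19.5 to 121.9 in run 2 and 54.8 to 82.9 in run 3, and its part in these results was not tested. Rosa KO had no library in run 2, Dnmt3a KO none in run 3 and Tet2 KO none in run 1.

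**Figure D4:**
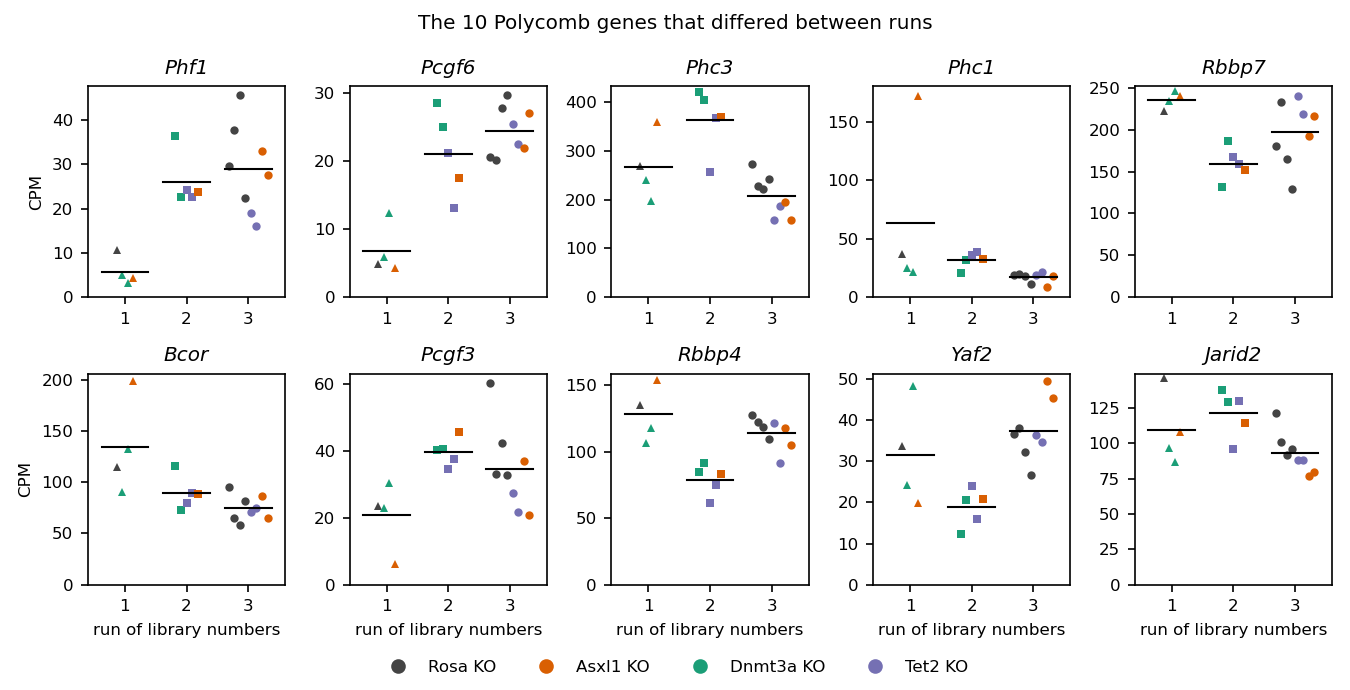
CPM (y axis, from 0, a scale for each panel) of the 10 Polycomb genes that passed the run test, by run of library numbers (x axis). Points are libraries coloured by group and bars are run means; the 4 run 1 libraries are the lowest for Phf1 and Pcgf6, and the Phc1 mean of run 1 is drawn up by Asxl1 KO 1.

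Asxl1 KO 1 held the highest level of 9 of the 33 Polycomb genes (27.3%) and the lowest of 6 (18.2%), where it held the highest of 18.2% and the lowest of 18.2% of all tested genes. The 9 were Bcor (199 CPM), Phc1 (172), Rbbp4 (154), Cbx7 (127.6), Pcgf5 (76.7), Bmi1 (62.7), Phc2 (55.1), Rybp (42.6) and Bcorl1 (41.5). Leaving this library out left the count of called genes in Asxl1 KO against Rosa KO at 0.

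Ezh2 was compared with 32 proliferation genes, since it is known to be expressed in dividing cells. Over the 17 libraries, log2 CPM of Ezh2 and the mean log2 CPM of the list had a Pearson r of 0.572 (permutation p = 0.0172, two-sided, adjusted over the 2 relations computed = 0.0345) and a Spearman rho of 0.422 (permutation p = 0.0936, adjusted = 0.187). Without Dnmt3a KO 3 and Tet2 KO 3, the 2 libraries farthest from the median, r was 0.391 (permutation p = 0.149), which no longer passed 0.05. Within run 3 (n = 8) r was 0.741 (exact permutation p = 0.0366, adjusted = 0.0733) and rho 0.667 (0.0831), and runs 1 and 2 held too few libraries. Ezh1 had an r of −0.33 (permutation p = 0.193) and a rho of −0.31 (0.224), and −0.25 (exact permutation p = 0.553) within run 3. The permutations shuffled libraries without regard to group, and over the 17 libraries without regard to run. These p-values therefore do not set a relation apart from differences between groups or runs. In run 3, Tet2 KO 3 and 4 had both the highest list means (6.51 and 6.37) and the highest Ezh2 (144 and 152 CPM).

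**Figure D5:**
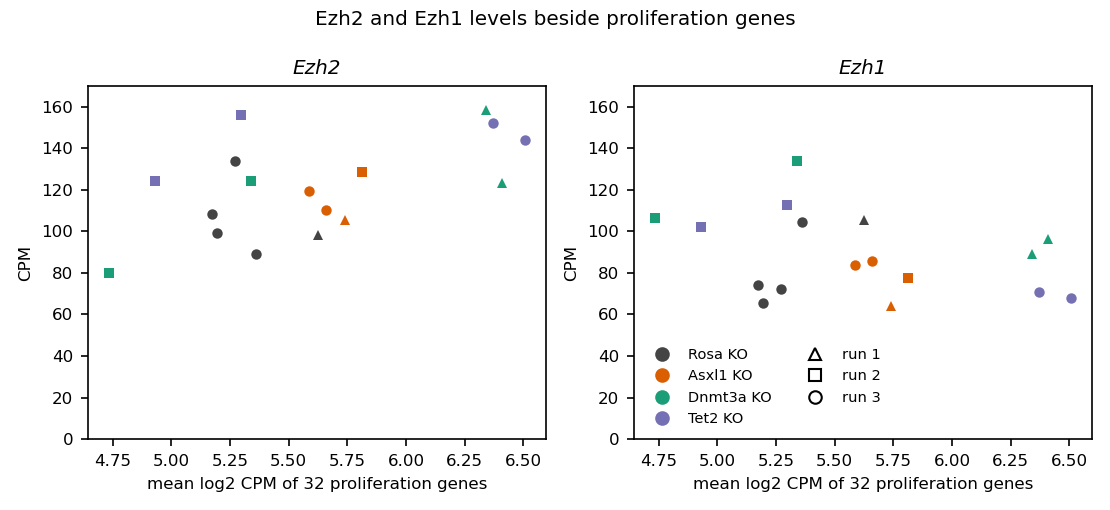
CPM of Ezh2 and of Ezh1 (y axes, from 0) against the mean log2 CPM of 32 proliferation genes (x axes) in 17 libraries, coloured by group with the shape giving the run. Ezh2 lies at 144 and 152 CPM in Tet2 KO 3 and 4, among the libraries with most proliferation RNA, and Ezh1 at 67.7 and 71.0 CPM in the same libraries.

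In Tet2 KO, edgeR called 8 of the 32 proliferation genes higher and 0 lower (0.987% of all genes were called higher), with a median log2 fold change of 0.94 against −0.020 over all genes. The cyclin genes Ccnb2 (1.43 ± 0.28, edgeR adjusted p = 0.00851) and Ccna2 (1.29 ± 0.29, 0.027), the spindle gene Tpx2 (1.28 ± 0.31, 0.0324) and the nucleotide gene Dut (0.98 ± 0.22, 0.0216) had the largest changes of the 8. The mean log2 CPM of the list was 4.93, 5.30, 6.51 and 6.37 in Tet2 KO 1 to 4 and 5.17 to 5.62 in Rosa KO, so only Tet2 KO 3 and 4 lay above the Rosa KO libraries. The calls depended on single libraries and on the model. The count was 0 without Tet2 KO 3, 0 without Tet2 KO 4, 2 without Rosa KO 4, 2 without Rosa KO 5, 4 without Rosa KO 1 and 5 without Rosa KO 2, and 0 both without the run term and with the replicate block (edgeR). Within run 3 alone it was 16 of 32, all higher, where 2.23% of all genes were called in either direction. With DESeq2 it was 11 (3.34%) and without the filter on low counts 15 (1.78%). With only the libraries of the 2 groups it was 11 (1.22%). In the reported edgeR fits of Asxl1 KO and Dnmt3a KO only Dut passed, 1 of 32 in each (0.814% and 0.036% of all genes were called higher). Its log2 fold changes were 0.85 ± 0.21 and 1.23 ± 0.25 (edgeR adjusted p = 0.0391 and 0.0258), with list medians of 0.65 and 0.66. Dut was called in 3 of 9 and 4 of 9 fits without 1 library, and in neither comparison without the run term or with the replicate block. It was called in both with DESeq2 and without the filter on low counts, and in neither with only the libraries of the 2 groups. Over the list DESeq2 called 6 genes higher in Asxl1 KO and 2 in Dnmt3a KO (5.23% and 1.09% of all genes). Without the filter edgeR called 11 and 3 higher (2.68% and 0.59%). With only the libraries of the 2 groups edgeR called 0 and 2 (1.29% and 0.335%).

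Around the complexes, 18 genes of further variant PRC1 partners were tested. Of these Csnk2b, the regulatory subunit of casein kinase, rose in Asxl1 KO (1.08 ± 0.22, edgeR adjusted p = 0.00907) and in Tet2 KO (0.94 ± 0.23, 0.0344), and 0 passed in Dnmt3a KO. The calls were thus 1 of 18, 1 of 18 and 0 of 18, where 1.64%, 1.47% and 0.216% of all genes were called in either direction. Csnk2b was called in 8 of 9 fits without 1 library in Asxl1 KO, with the call lost without Asxl1 KO 3, and in 2 of 9 in Tet2 KO, where it held without Rosa KO 4 and without Tet2 KO 2. It was called in neither within run 3, without the run term, with the replicate block or with only the libraries of the 2 groups. DESeq2 called Csnk2b in both, as did edgeR without the filter on low counts. The 10 genes of the Polycomb deubiquitinase, Asxl1 among them, and the 2 demethylases of the PRC2 mark had 0 calls in each of the 3 comparisons with Rosa KO. Of 41 genes commonly listed as Polycomb targets, 5 passed the filter on low counts and 0 were called in those comparisons. That list holds the B cell genes Pax5 and Ebf1, and the part of B cell RNA in its values was not tested.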

How the data were processed

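RNA-seq was analysed from 17 libraries, grouped by the genetic modification in the labels. Each library had its own table, deposited by the authors, of unnormalised counts with gene identifiers from NCBI and symbols. STAR 2.5.3a, DESeq2 1.26.0 and the build mm10 are named, without roles, per the submitters' processing notes. A stranded total RNA kit is named per the labels' protocols, while what counted the reads, against which annotation and by which strand is not stated there. The molecule label reads genomic DNA, and the protocols describe RNA. RefSeq's table for GRCm38.p6 matched 24570 of 24594 identifiers, and 3 rows without a symbol stayed out of the gene set. Transcript lengths came from GENCODE for all 33 genes.

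From the deposited counts, TMM scaling and filterByExpr (minimum count 10, total 15) left 13881 genes. These were fitted in edgeR 4.0.16 (R 4.3.3) by the robust quasi-likelihood F test, in 1 model of group plus run that left 11 residual degrees of freedom (common biological coefficient of variation 0.604). P-values were adjusted by Benjamini-Hochberg over all tested genes, with a call at 0.05. The step was tested on simulated data. The 28 pairs of libraries of the same group differed by a chi-square of 20.6 to 272 per degree of freedom, so none was treated as another library deposited again.

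The members, the lists and the tests were chosen with earlier results of these data known. Fold changes were named for Ezh2, Ezh1, Eed, Suz12, Rnf2, Ring1 and Bmi1 against Rosa KO and for any called member, and of the context lists up to 4 called genes each. Fold changes of Aebp2, Cbx2, Jarid2, Mtf2, Pcgf1, Phc1, Phf1 and Rybp, and of Bmi1 between knockouts, lie outside that rule and were chosen after their values were seen, as was the count of context calls under alternatives. Alternatives were DESeq2 1.42.0, other scaling, filter and model terms, fits within runs, a replicate block and leaving out each library. Depth varied with the library and limits genes of low count. Limits for a count of 0 use 3 counts and cover counting error only.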

Additional observations from a re-analysis of the deposited data

Results flagged for a closer look

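Single libraries stood far from the others of their group, with a gap to the nearest library above Dixon's 95% critical value for the group's range, in 7 cases over the 33 Polycomb genes in 4 groups each. Chance flags about 1 in 20 such groups. Eed was at 109 CPM in Rosa KO 3 against 54.5 to 61.0 CPM in the other 4 Rosa KO libraries. Pcgf2 was at 55.2 CPM in Rosa KO 2 against 0.857 to 16.1 CPM, and Phc2 at 47.3 CPM in Rosa KO 5 against 23.1 to 28.7 CPM. Aebp2 was at 208 CPM in Asxl1 KO 2 against 150.9 to 159 CPM in the other Asxl1 KO libraries. Cbx7 at 128 CPM (others 39.1 to 48.3) and Phc1 at 172 CPM (others 8.81 to 32.4) both stood out in Asxl1 KO 1. Pcgf1 was low in Tet2 KO 1, at 2.26 CPM against 13.0 to 14.6 CPM in the other Tet2 KO libraries.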

How the results depend on the processing

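Counts of called Polycomb genes between groups were 0 in the reported fits and 0 without each library in turn, for all 6 comparisons and the joint test. They differed under 3 settings. Without the filter on low counts edgeR called 1 in Dnmt3a KO against Rosa KO (Pcgf1, against 0.59% of all genes), 1 in Tet2 KO against Rosa KO (Pcgf2, 1.78%), 2 in Asxl1 KO against Dnmt3a KO (Cbx7 and Phc1, 1.46%) and 3 between any groups (4.22%). DESeq2 called 1 in Dnmt3a KO and 1 in Tet2 KO against Rosa KO, and within run 1 edgeR called 4 in Asxl1 KO against Dnmt3a KO. The causes were not tested. Between runs the count was 10, with 7 to 10 without each library, 12 with DESeq2 (30.4% of all genes) and 2 (Phc3 and Phf1) with the replicate block (8.03%). Pcgf6, Phc1, Phc3 and Phf1 were called in each fit without 1 library. The replicate block gave 0 in the other comparisons. Over 24 pairs of libraries with the same number in different groups, deviations from group and run correlated by a median of −0.043. The median was 0.014 over the 84 pairs with different numbers, so no pairing by number was seen. Fitting group and run itself shapes such correlations, so pairing is not excluded.

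Of 336 values of the 21 named fold changes under alternatives, 32 changed sign, and none passed. Without the run term Suz12 in Dnmt3a KO was 0.14 and Ezh1 in Tet2 KO 0.068, and without the filter Suz12 in Dnmt3a KO was 0.011. With the replicate block Ezh1 and Rnf2 in Dnmt3a KO were −0.082 and −0.079. With only the libraries of the 2 groups in the fit, Ezh1, Suz12 and Ring1 in Dnmt3a KO were −0.18, 0.057 and 0.28, and within run 1 they were −0.18, 0.055 and 0.28. Within run 3 Ezh1 and Rnf2 in Asxl1 KO were 0.089 and 0.075. Without each library in turn, Eed in Asxl1 KO ran from −0.34 to 0.055, and Ring1 from −0.52 to 0.16 in Dnmt3a KO and from −0.20 to 0.12 in Tet2 KO. Rnf2 ran from −0.27 to 0.0095, from −0.070 to 0.20 and from −0.23 to 0.0027 in Asxl1 KO, Dnmt3a KO and Tet2 KO, and Suz12 from −0.13 to 0.049, from −0.14 to 0.058 and from −0.041 to 0.15.

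Over all genes, the 227, 30 and 204 called in Asxl1 KO, Dnmt3a KO and Tet2 KO against Rosa KO were 23, 19 and 23 without the run term, 51, 0 and 52 with the replicate block, and 677, 150 and 407 with DESeq2, and the first and last were 568 and 378 without the filter, so the background shares move with the setting. A prior count of 0.5 left the mean of each paralog ratio within 1 SD. Low counts and the spread between libraries limit the 7 genes under 10 CPM.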
